A study of Mus musculus with 9 samples.

Results

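The genes described here are 45 cell cycle and DNA replication genes, chosen by symbol from a fixed list, of 23453 gene symbols in the count table. They fall into 15 genes of G1 and the entry into S phase, 10 genes of S phase, and 20 genes of G2 and mitosis, and these groups are reported apart. All 45 symbols were listed, and the lowest count of any of them in any library was 79, for Ccnd2, so all 45 passed the filter on low counts in every comparison. They were measured by bulk RNA-seq in mouse cells of 3 states, 9 libraries in all and 3 of each. Epiblast-like cells (EpiLCs) were made from naive ESCs by culture for 48 h in N2B27 medium with 1% KSR (a serum replacement), FGF2 and Activin A. aEpiLCs, a model of the anterior epiblast, were EpiLCs kept for a further 24 h in N2B27 basal medium. pEpiLCs, a model of the posterior epiblast, were EpiLCs kept for a further 24 h with Activin and CHIR99021, an agonist of WNT/β-catenin signalling. The methods of the study give KSR at the percentage used for EpiLCs in the medium of both derivatives. The study calls the aEpiLCs and pEpiLCs wild-type. The labels name neither a genotype nor a cell line and describe no sort, and they give the tissue as embryo although the cells came from culture. EpiLCs were harvested a day before both derivatives, so that medium and time in culture cannot be told apart in the comparisons with EpiLCs, whereas aEpiLCs and pEpiLCs were matched in time. The labels do not say whether replicates were separate cultures, so the p-values measure the spread between these libraries, which may be technical.

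Passage through the cell cycle is driven by cyclins, which bind and activate cyclin-dependent kinases (CDKs). In G1, D-type cyclins with CDK4 or CDK6, and then E-type cyclins with CDK2, phosphorylate the retinoblastoma family of pocket proteins, which releases E2F transcription factors to switch on the genes of DNA replication. A-type and B-type cyclins with CDK1 then take the cell through G2 and mitosis. Cells of the early mouse embryo and pluripotent stem cells are known for rapid divisions with a short G1, and the epiblast divides fast as gastrulation begins. In bulk libraries such as these, fewer cells in a phase of the cycle and less RNA of a gene per cell cannot be told apart.

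Library totals lay between 20560564 and 23417917 counts, and 3 counts corresponded to 0.130 to 0.143 CPM, the counts scaled to library size. CPM values were normalised by TMM over the 9 libraries. The 45 genes took between 0.924% and 1.02% of all counts in a library. pEpiLC replicate 1 stood apart from the other pEpiLC libraries: 323 and 333 genes differed by more than 4-fold from replicates 2 and 3, whereas 57 to 76 genes did so in each of the other pairs within a state. Among the 45 genes, its largest differences were 0.66 on the log2 scale for Cdkn1b against replicate 2 and 0.52 for Ccnd3 against replicate 3. Calls of the 45 genes that change without this library, and counts that then move by over 1.5 times, are given below. Of the markers fixed for other cell types, the summed level of 7 epiblast markers was 4561 to 4845 CPM in EpiLCs, 4227 to 4423 in aEpiLCs and 1813 to 3097 in pEpiLCs, and none of the 7 was at or below 3 counts in all libraries of a state. Summed levels of 8 posterior markers were 26.6 to 31.7, 22.9 to 38.8 and 903 to 2640 CPM, and those of 8 neural markers 102 to 127, 195 to 218 and 37.4 to 59.8 CPM, in the same order of states. At or below 3 counts in every library of a state were Evx1, Neurog2 and Prdm14 in EpiLCs, Mesp1, Evx1, Prdm14 and Sox7 in aEpiLCs, and Pax6, Hes5, Neurog2, Sox7 and Apoa1 in pEpiLCs. The 8 naive markers summed to 30.7 to 34.9, 18.5 to 19.8 and 24.0 to 28.0 CPM, the 6 listed extraembryonic endoderm markers to 13.9 to 14.2, 16.8 to 18.6 and 9.28 to 14.3 CPM, and the 6 listed fibroblast markers to 21.8 to 26.0, 24.2 to 27.2 and 16.2 to 34.0 CPM. Mitochondrial transcripts took 1.55% to 1.71% of counts in EpiLCs, 2.17% to 2.34% in aEpiLCs and 2.24% to 2.45% in pEpiLCs. The part of these differences in the results below was not tested.

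**Figure D1:**
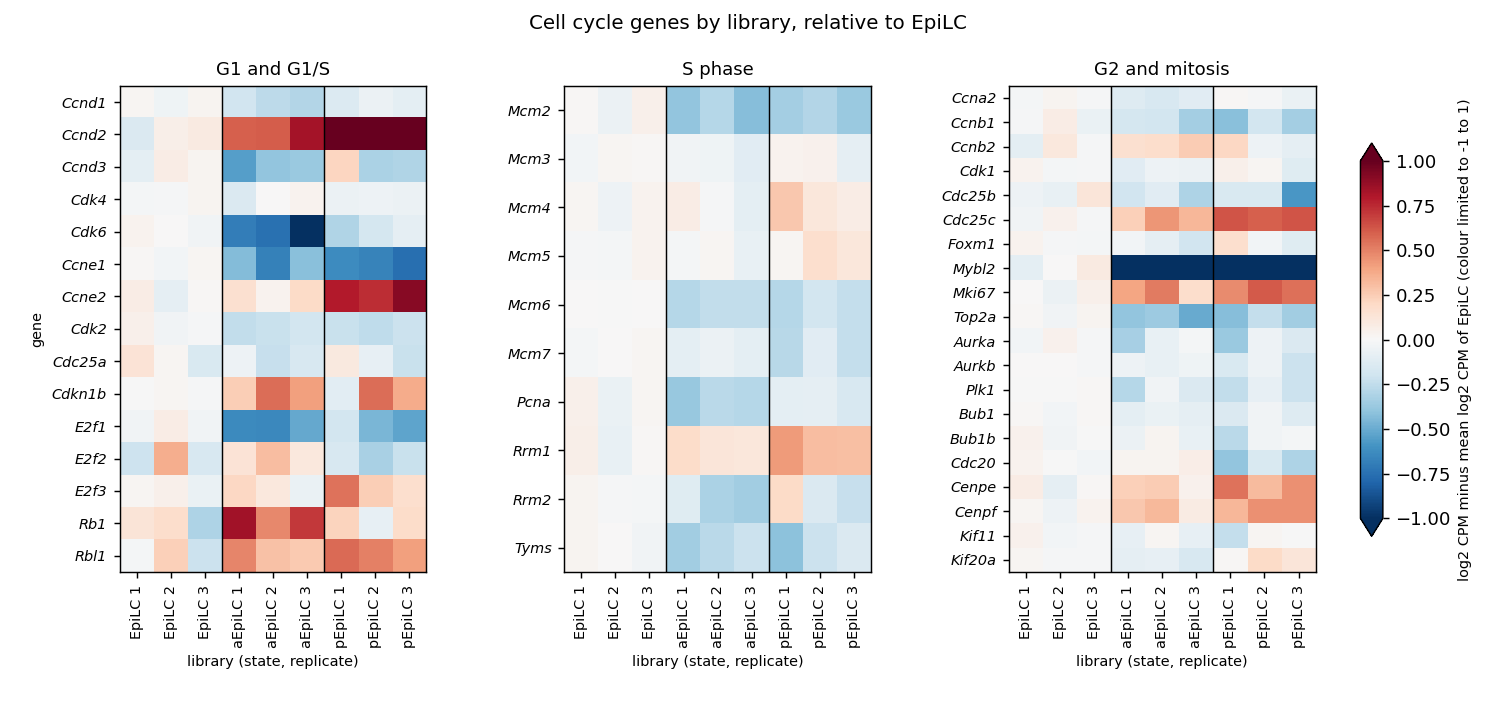
Heat map of the 45 genes (rows, in 3 panels by phase) in the 9 libraries (columns). Colour gives the log2 CPM of a library minus the mean log2 CPM of the 3 EpiLC libraries, limited to the range from -1 to 1. Ccnd2 is dark red in all pEpiLC libraries, Mybl2 is dark blue in all aEpiLC and pEpiLC libraries, and most other genes stay pale.

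Most of the cell cycle genes differed little between the states, and a few single genes carried large differences (the heat map of genes by library shows both). A gene was called at an adjusted p below 0.05 in edgeR's quasi-likelihood test, with Benjamini-Hochberg adjustment over all genes tested. From EpiLCs to aEpiLCs, 9 of the 45 genes were higher and 14 lower, where 24.0% of all 15301 genes tested were higher and 22.6% lower. Only Mybl2 of the 45 was called with at least a 2-fold change, against 12.5% of all genes. The libraries of the 2 states did not overlap for 33 of the 45 genes, against 56.3% of all genes. The median log2 fold change was -0.03 over the G1 genes, -0.17 over the S-phase genes and -0.08 over the G2 and mitosis genes, and 0.00 over all genes tested.

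From EpiLCs to pEpiLCs, a comparison that shares its EpiLC libraries with the one above, 9 of the 45 genes were higher and 11 lower, beside 22.8% and 21.4% of all 15288 genes tested. Without pEpiLC replicate 1, 12 were higher and 14 lower, beside 26.6% and 26.0% of all genes in that fit. Without any 1 of the 3 EpiLC libraries, 6 were lower, beside at most 15.6% of all genes. Ccnd2 was higher and Mybl2 lower by at least 2-fold, against 15.8% of all genes with such a change in either direction. The libraries did not overlap for 30 of the 45 genes, against 58.7% of all genes. Medians were -0.04 over the G1 genes, -0.06 over the S-phase genes and -0.06 over the G2 and mitosis genes, and 0.02 over all genes tested.

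Between the derivatives, 3 genes were higher in pEpiLCs than in aEpiLCs (Ccnd2, Ccne2 and Cdk6) and 2 were lower (Rb1 and Cdc20), beside 6.28% and 9.30% of all 15198 genes tested. A total of 12 of the 45 genes had an unadjusted p below 0.05, beside 31.0% of all genes. Both lower calls were lost without any 1 of the 3 aEpiLC libraries, where 3.20% to 4.07% of all genes were lower. The lower count was 1 without pEpiLC replicate 2, 0 without replicate 3 and 3 without replicate 1, beside 6.74%, 6.41% and 12.8%. Ccnd2 alone passed the 2-fold limit, against 7.29% of all genes, and the libraries did not overlap for 18 of the 45 genes, against 38.8% of all genes. Medians were 0.14 over the G1 genes, 0.10 over the S-phase genes and -0.02 over the G2 and mitosis genes, and 0.01 over all genes tested. DESeq2 and limma called 6 genes higher in pEpiLCs, and a single fit of all 9 libraries 8, beside 8.08%, 9.70% and 9.27% of all genes. Of all genes, these fits called 10.8%, 14.1% and 12.5% lower, and the fit with the replicate number as a block called 6.51% higher and 9.70% lower.

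**Figure D2:**
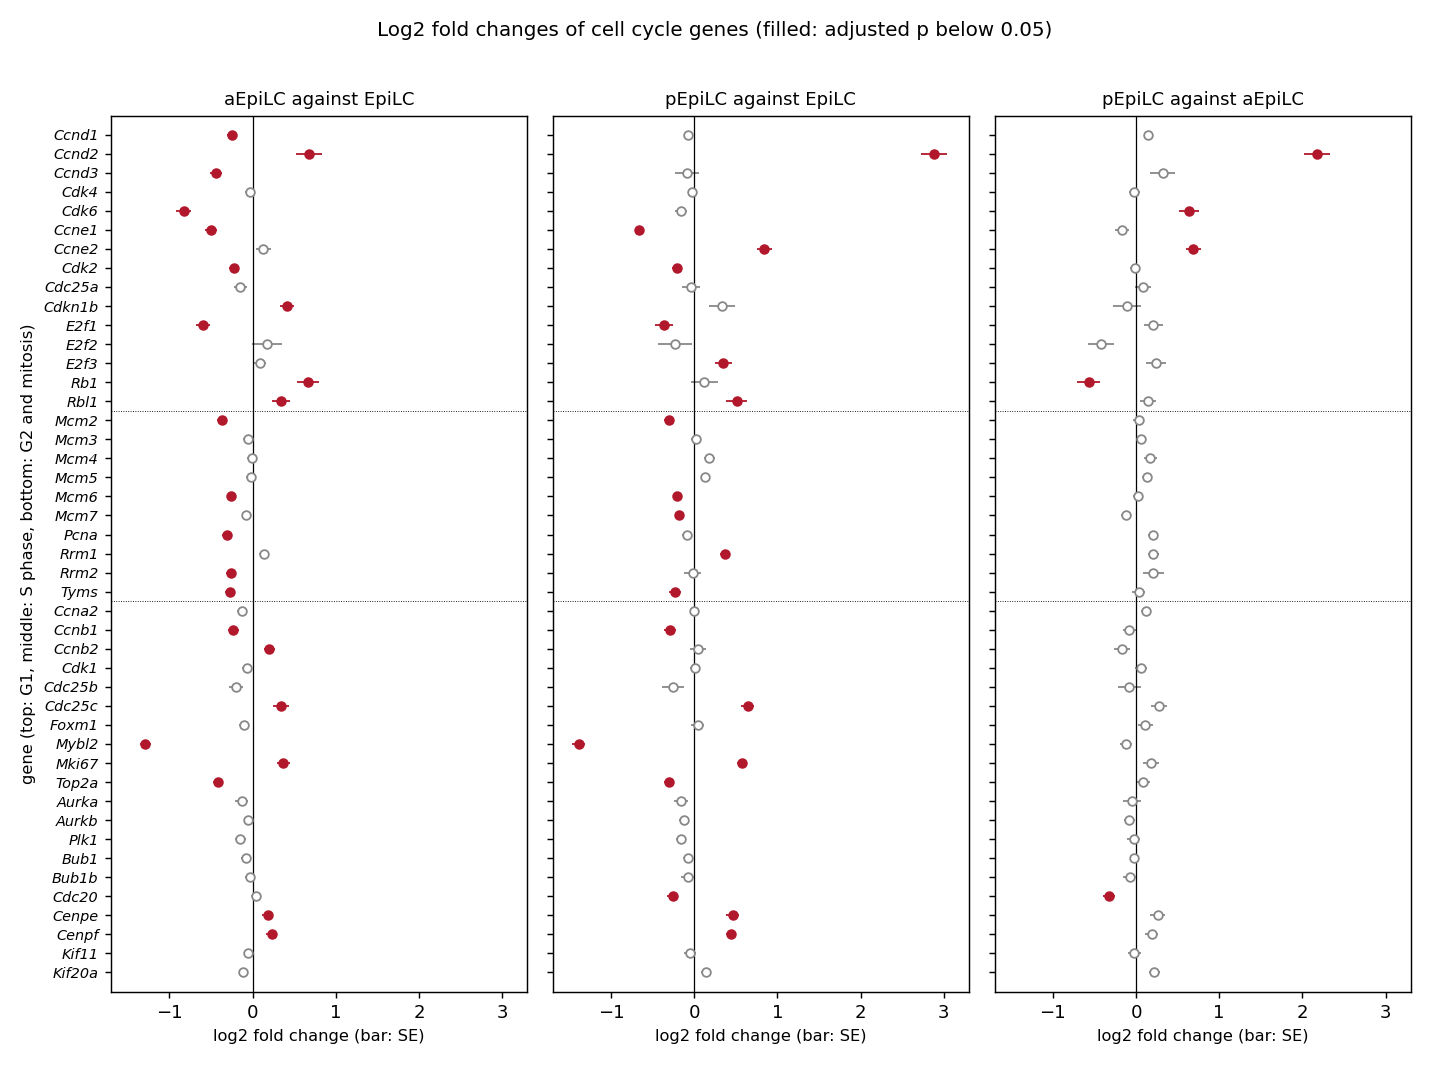
Log2 fold changes of the 45 genes (x axis, 3 panels, one per comparison) with their standard errors as bars. Genes are ordered from G1 at the top to mitosis at the bottom, and filled points have an adjusted p below 0.05. Ccnd2 at 2.88 and 2.18 in the pEpiLC panels and Mybl2 at -1.29 and -1.39 against EpiLCs lie farthest from 0, and all other points lie between -1 and 1, among them Cdk6 at -0.83 in aEpiLCs and Ccne2 at 0.84 in pEpiLCs.

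Among the G1 genes, the largest change was the rise of Ccnd2, a D-type cyclin gene, in pEpiLCs. Ccnd2 (cyclin D2, chromosome 6, 127125162 to 127152193 on GRCm38) had 3.68, 4.24 and 4.35 CPM in the EpiLC libraries, 6.19, 6.21 and 7.27 CPM in the aEpiLC libraries and 34.9, 25.1 and 29.3 CPM in the pEpiLC libraries. The 3 states did not overlap, and every pEpiLC library lay far above every aEpiLC library. Its log2 fold change from EpiLCs was 0.68 in aEpiLCs (standard error 0.157, adjusted p = 0.00311) and 2.88 in pEpiLCs (standard error 0.159, adjusted p = 4.04e-05). Between the derivatives the log2 difference was 2.18 in favour of pEpiLCs (standard error 0.155, adjusted p = 0.000267). Without pEpiLC replicate 1 the log2 fold change from EpiLCs was 2.76. Exons of Ccnd2 overlap those of 9330179D12Rik and Gm43126 on the opposite strand, and whether counting used strand is not given in the sources used here.

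Ccnd1, cyclin D1, had 221, 211 and 222 CPM in EpiLCs, 191, 182 and 178 CPM in aEpiLCs and 199, 210 and 203 CPM in pEpiLCs. It fell in aEpiLCs by 0.25 on the log2 scale (standard error 0.0569, adjusted p = 0.00319) and was not called in pEpiLCs (-0.07, adjusted p = 0.269). Ccnd3, cyclin D3, had 83.0, 93.3 and 90.4 CPM in EpiLCs, 60.7, 67.4 and 68.6 CPM in aEpiLCs and 103, 71.2 and 71.9 CPM in pEpiLCs. It fell in aEpiLCs by 0.44 on the log2 scale (standard error 0.0708, adjusted p = 0.000230). In pEpiLCs its libraries lay on either side of those of EpiLCs, with replicate 1 above and the others below (-0.09, adjusted p = 0.623), and it was called lower without replicate 1 (-0.29, adjusted p = 0.00198) and by limma (-0.26, adjusted p = 0.0184). On a scale of CPM per kilobase of transcript, which allows genes to be compared, Ccnd2 made up 0.640% ± 0.0447 of the summed D-type cyclin level in EpiLCs, 1.28% ± 0.120 in aEpiLCs and 4.78% ± 0.484 in pEpiLCs (SD, n = 3 libraries each). Ccnd1 made up 57.7% ± 2.00, 60.5% ± 2.43 and 55.9% ± 5.60, and Ccnd3 the rest. Cyclin D2 was the least abundant of the 3 D-type transcripts in each state. Exons of Ccnd1 and Ccnd3 overlap those of LTO1 and Bysl on the opposite strand.

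**Figure D3:**
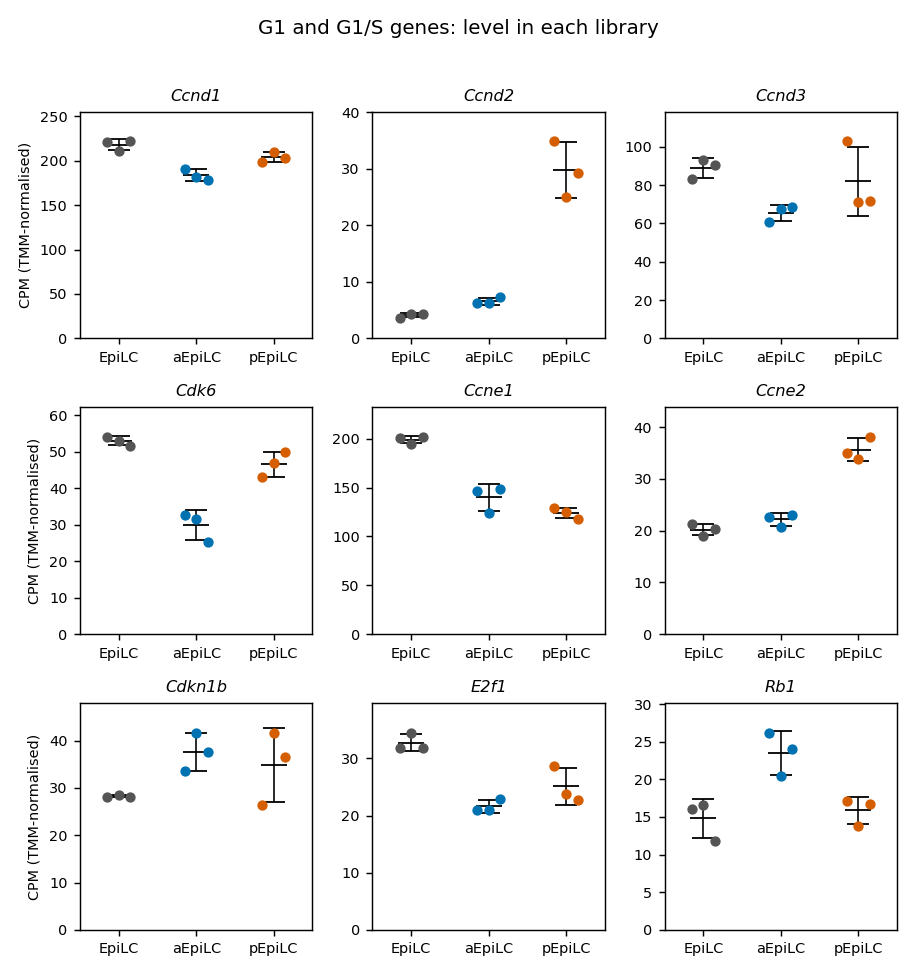
Level of 9 G1 genes in each library (y axis, TMM-normalised CPM from 0) for EpiLCs, aEpiLCs and pEpiLCs (x axis). Points are libraries in the order of their replicate numbers, and black marks give the mean and the SD of the 3 libraries. Ccnd2 and Ccne2 are highest in pEpiLCs, Cdk6 is lowest and Rb1 highest in aEpiLCs, and Ccne1 and E2f1 are highest in EpiLCs.

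Of the kinase partners of the D-type cyclins, Cdk6 fell in aEpiLCs and Cdk4 was called nowhere. Cdk4 stayed between 548 and 622 CPM in all 9 libraries (log2 fold changes of -0.03, -0.03 and -0.02). Cdk6 (chromosome 5, 3341485 to 3531008) had 54.1, 53.1 and 51.7 CPM in EpiLCs, 32.8, 31.6 and 25.2 CPM in aEpiLCs and 43.0, 46.9 and 49.9 CPM in pEpiLCs. The aEpiLC libraries lay below all others, and the pEpiLC libraries lay between the other states. It fell by 0.83 on the log2 scale in aEpiLCs (standard error 0.0912, adjusted p = 8.92e-06) and was higher in pEpiLCs than in aEpiLCs by 0.64 (standard error 0.120, adjusted p = 0.0130). Without aEpiLC replicate 2 the adjusted p of the latter was 0.0510. The difference between pEpiLCs and EpiLCs was not called (-0.16, adjusted p = 0.118). Per kilobase, Cdk6 made up 1.54% ± 0.0578 of the summed level of Cdk4 and Cdk6 in EpiLCs, 0.896% ± 0.171 in aEpiLCs and 1.41% ± 0.101 in pEpiLCs (SD, n = 3). Exons of Cdk4 and Cdk6 overlap those of Tspan31 and Gm17590 on the opposite strand.

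The E-type cyclins moved in opposite directions in pEpiLCs. Ccne1, cyclin E1 (chromosome 7, 38097984 to 38107534), had 201, 195 and 202 CPM in EpiLCs, 147, 124 and 149 CPM in aEpiLCs and 129, 125 and 118 CPM in pEpiLCs. Every EpiLC library lay above every other library, while the derivatives overlapped. It fell by 0.50 on the log2 scale in aEpiLCs (standard error 0.0707, adjusted p = 6.99e-05) and by 0.66 in pEpiLCs (standard error 0.0546, adjusted p = 0.000198). Ccne2, cyclin E2 (chromosome 4, 11191351 to 11204779), had 21.3, 19.0 and 20.4 CPM in EpiLCs, 22.7, 20.7 and 23.1 CPM in aEpiLCs and 35.0, 33.8 and 38.1 CPM in pEpiLCs. The pEpiLC libraries stood above all others, and those of EpiLCs and aEpiLCs overlapped. Its log2 fold change was 0.13 in aEpiLCs (adjusted p = 0.261) and 0.84 in pEpiLCs (standard error 0.0897, adjusted p = 0.000519), and 0.69 between pEpiLCs and aEpiLCs (standard error 0.0931, adjusted p = 0.00363). Per kilobase, Ccne2 made up 6.34% ± 0.247 of the summed E-type cyclin level in EpiLCs, 9.54% ± 0.368 in aEpiLCs and 16.1% ± 1.38 in pEpiLCs (SD, n = 3). Their partner Cdk2 had 107 to 113 CPM in EpiLCs, 92.3 to 95.9 CPM in aEpiLCs and 91.6 to 94.3 CPM in pEpiLCs. Cdk2 fell by 0.22 on the log2 scale in aEpiLCs (adjusted p = 0.00807) and by 0.21 in pEpiLCs (adjusted p = 0.0163). The call in pEpiLCs was lost without EpiLC replicate 1 or 3 or pEpiLC replicate 2, with adjusted p of 0.0646, 0.0527 and 0.0554. Exons of Ccne2 and Cdk2 overlap those of Ints8 and Pmel on the opposite strand.

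Rb1, Rbl1 and Cdkn1b, which restrain the passage through G1, were the members of that kind, and further ones are given with the other G1 regulators. Rb1 encodes the retinoblastoma protein (chromosome 14) and had 16.0, 16.6 and 11.8 CPM in EpiLCs, 26.2, 20.4 and 24.0 CPM in aEpiLCs and 17.1, 13.8 and 16.7 CPM in pEpiLCs. All aEpiLC libraries lay above all others, and EpiLCs and pEpiLCs overlapped. It rose in aEpiLCs by 0.67 on the log2 scale (standard error 0.134, adjusted p = 0.00115) and was lower in pEpiLCs than in aEpiLCs by 0.57 (standard error 0.137, adjusted p = 0.0305). The latter call was lost in 5 of the 6 fits that left out a library, all but that without pEpiLC replicate 1, with adjusted p from 0.0563 to 0.110. Exons of Rb1 overlap those of Lpar6 and Rcbtb2 on the opposite strand. Cdkn1b encodes the CDK inhibitor p27 and had 28.2, 28.6 and 28.0 CPM in EpiLCs, 33.6, 41.6 and 37.6 CPM in aEpiLCs and 26.3, 41.7 and 36.6 CPM in pEpiLCs. It rose in aEpiLCs by 0.41 on the log2 scale (standard error 0.0863, adjusted p = 0.00153, and 0.0510 when all 9 libraries were fitted together). In pEpiLCs replicate 1 lay below every EpiLC library and the other libraries above them, and the difference was not called by edgeR (0.33, adjusted p = 0.126). It was called without replicate 1 (0.50, adjusted p = 0.000131) and by limma (0.46, adjusted p = 0.00243). Rbl1, which encodes the pocket protein p107, had 21.2 to 29.1 CPM in EpiLCs, 29.5 to 34.7 CPM in aEpiLCs and 32.7 to 36.5 CPM in pEpiLCs, and both derivatives were called higher (log2 fold changes 0.34 and 0.51, adjusted p = 0.0213 and 0.0134). The call in aEpiLCs was lost without EpiLC replicate 1 or 3 or aEpiLC replicate 1 (adjusted p = 0.0689, 0.109 and 0.0805), and that in pEpiLCs without EpiLC replicate 1 (adjusted p = 0.0520).

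Of the activating E2F factors, which switch on S-phase genes, E2f1 fell while E2f3 did not. E2f1 had 31.9, 34.5 and 31.9 CPM in EpiLCs, 21.0, 20.9 and 22.9 CPM in aEpiLCs and 28.7, 23.8 and 22.7 CPM in pEpiLCs. The EpiLC libraries lay above all others, and pEpiLC replicate 1 lay closest to them. Its log2 fold change was -0.60 in aEpiLCs (standard error 0.0826, adjusted p = 6.40e-05) and -0.36 in pEpiLCs (standard error 0.109, adjusted p = 0.0294). The call in pEpiLCs held without replicate 1 (-0.47, adjusted p = 0.000292) and was lost without any other library, with adjusted p from 0.0691 to 0.103. E2f3 had 67.6 to 73.6 CPM in EpiLCs, 67.6 to 82.0 CPM in aEpiLCs and 79.6 to 103 CPM in pEpiLCs, and was called higher in pEpiLCs (log2 fold change 0.35, adjusted p = 0.0259). That call was lost without any 1 of the EpiLC libraries, with adjusted p of 0.0734, 0.0646 and 0.0979. E2f2, at 4.13 to 6.65 CPM, and Cdc25a, a phosphatase that activates CDK2, at 98.8 to 127 CPM, were called in no comparison, though Cdc25a was called lower in aEpiLCs without EpiLC replicate 3 (adjusted p = 0.0412), and limma called E2f2 lower in pEpiLCs than in aEpiLCs (adjusted p = 0.0441). Per kilobase, E2f1 made up 44.2% ± 0.639 of the summed level of the 3 factors in EpiLCs, 33.0% ± 3.16 in aEpiLCs and 33.1% ± 0.136 in pEpiLCs (SD, n = 3). In all, 4 of the 15 G1 genes (26.7%) were higher and 6 (40.0%) lower in aEpiLCs, beside 24.0% and 22.6% of all genes. In pEpiLCs 4 (26.7%) were higher and 3 (20.0%) lower, close to the 22.8% and 21.4% of all genes. Without EpiLC replicate 1, 2 were higher, beside 16.2% of all genes. Without EpiLC replicate 1 or 3 or pEpiLC replicate 2, 1 was lower, beside at most 18.7%. Against aEpiLCs, 3 (20.0%) were higher and 1 (6.67%) lower in pEpiLCs, beside 6.28% and 9.30% of all genes. In that comparison limma called 2 lower, beside 14.1% of all genes.

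Promoter sequences show what genes of a phase share in their DNA, independent of these counts. RefSeq promoters on GRCm38.p6, from 250 bases before to 50 after an annotated start, were found for 35 of the 45 genes, 11 of G1, 9 of S phase and 15 of G2 and mitosis. E2F sites were searched as TTTGGCGC, TTTCCCGC or TTTCGCGC, the CCAAT box as CCAAT, and the core of the cell cycle genes homology region (CHR), a binding element of late cell cycle promoters, as TTTGAA, each on both strands. These letters were chosen because they are known from cell cycle promoters. An E2F form was present in 5 of 11 G1 genes (45.5%), against 2.1% of the 27025 genes with a promoter and 3.5% of the 14497 of these in the count table. CCAAT was present in 6 of the 11 (54.5%), against 41.1% and 42.8%. TTTGAA was present in 2 (18.2%), which lies between the shares of both backgrounds, 20.2% and 15.3%. The G1 promoters below are of genes that moved in different directions, Rbl1 upwards and Cdk2 downwards, and each holds an E2F form. They are the last 150 bases before the start, with E2F forms, CCAAT and TTTGAA, or their reverse complements, in capitals.
Rbl1 promoter, chr2:157204535-157204684, minus strand: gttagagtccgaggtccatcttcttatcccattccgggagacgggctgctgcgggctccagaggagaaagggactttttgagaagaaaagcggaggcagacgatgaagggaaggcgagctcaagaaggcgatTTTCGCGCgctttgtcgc
Cdk2 promoter, chr10:128705052-128705201, minus strand: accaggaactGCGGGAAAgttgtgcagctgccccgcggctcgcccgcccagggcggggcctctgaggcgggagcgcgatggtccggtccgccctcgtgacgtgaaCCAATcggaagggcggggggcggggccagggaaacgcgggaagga

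Of the 10 S-phase genes, 5 fell in aEpiLCs (Mcm2, Mcm6, Pcna, Rrm2 and Tyms), beside 22.6% of all genes, 0 rose, beside 24.0%, and 5 were not called by edgeR. Of these, Rrm1 had an unadjusted p below 0.05 upwards and was called by limma and under total count scaling (adjusted p = 0.0447 and 0.0122). In pEpiLCs 4 (40.0%) were lower (Mcm2, Mcm6, Mcm7 and Tyms), beside 21.4% of all genes, 1 was higher (Rrm1), beside 22.8%, and 5 were not called. The lower count was 2 without any 1 of the EpiLC libraries, beside at most 15.6% of all genes. It was also 2 in edgeR's likelihood ratio test, without the filter and with the replicate number as a block, beside at most 21.0%. The higher count was 2 without pEpiLC replicate 1, beside 26.6% of all genes. It was 3 by limma and under total count scaling, beside 27.2% and 24.3%. Against aEpiLCs, 0 were called in pEpiLCs by edgeR in the fit of the 6 libraries, where 2 had an unadjusted p below 0.05, Pcna and Rrm1. Of all genes, 6.28% were higher, 9.30% lower and 31.0% below that p. Both were called higher by DESeq2 and limma (adjusted p from 0.0325 to 0.0408) and by edgeR in a single fit of all 9 libraries (0.0295 and 0.0298), and Rrm1 also with the replicate number as a block (0.0494), where DESeq2, limma, the single fit and the block called 8.08%, 9.70%, 9.27% and 6.51% of all genes higher. The mean log2 level of the 10 genes relative to EpiLCs was -0.14, -0.14 and -0.18 in the aEpiLC libraries and -0.05, -0.04 and -0.10 in the pEpiLC libraries. By this mean the pEpiLC libraries lay between those of aEpiLCs and those of EpiLCs, which ranged from -0.03 to 0.01. By the median over the 10 genes the derivatives overlapped, with -0.11, -0.15 and -0.16 in aEpiLCs and -0.04, -0.10 and -0.15 in pEpiLCs.

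The MCM2-7 proteins form the ring that unwinds DNA at replication forks, and 2 of the 6 transcripts, Mcm2 and Mcm6, fell in both derivatives. Mcm2 (chromosome 6) had 631, 603 and 648 CPM in EpiLCs, 478, 515 and 466 CPM in aEpiLCs and 496, 511 and 484 CPM in pEpiLCs. All EpiLC libraries lay above the others, and the derivatives overlapped. Mcm2 fell by 0.37 on the log2 scale in aEpiLCs (standard error 0.0590, adjusted p = 0.000224) and by 0.31 in pEpiLCs (standard error 0.0516, adjusted p = 0.00284). Mcm6 had 375, 374 and 376 CPM in EpiLCs, 308, 316 and 316 CPM in aEpiLCs and 308, 329 and 318 CPM in pEpiLCs. It showed the same order, and fell by 0.26 in aEpiLCs (standard error 0.0524, adjusted p = 0.00131) and by 0.21 in pEpiLCs (standard error 0.0482, adjusted p = 0.0101). Mcm3, Mcm4 and Mcm5 were called in no comparison by edgeR under TMM scaling with all libraries kept, with log2 fold changes from -0.06 to 0.18 against EpiLCs. Mcm4 was called higher in pEpiLCs under total count scaling and by limma (adjusted p = 0.0419 and 0.0424). Mcm5 was called higher in pEpiLCs than in EpiLCs by limma (adjusted p = 0.00994), under total count scaling (0.0396) and without pEpiLC replicate 1 (0.00696). Mcm7 had 575 to 590 CPM in EpiLCs, 543 to 561 CPM in aEpiLCs and 481 to 539 CPM in pEpiLCs, and only the fall in pEpiLCs was called (-0.18, adjusted p = 0.0306). That call was lost without any 1 of the EpiLC libraries or pEpiLC replicate 3, with adjusted p from 0.0756 to 0.103, without the filter on low counts (0.0515), with the replicate number as a block (0.0587) and in edgeR's likelihood ratio test (0.0669). Exons of Mcm7 overlap those of Ap4m1 and Cops6 on the opposite strand and hold Mir25 and Mir93. Per kilobase, Mcm2 made up 22.1% ± 0.508 of the summed MCM2-7 level in EpiLCs, 18.8% ± 0.556 in aEpiLCs and 18.8% ± 0.0980 in pEpiLCs, while the share of Mcm5 was 16.9% ± 0.0851, 18.3% ± 0.104 and 19.5% ± 0.805 (SD, n = 3).

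Pcna encodes the sliding clamp of DNA polymerases. It had 518, 479 and 509 CPM in EpiLCs, 386, 415 and 412 CPM in aEpiLCs and 469, 472 and 449 CPM in pEpiLCs. The 3 states did not overlap, with pEpiLCs in the middle. Pcna fell by 0.31 on the log2 scale in aEpiLCs (standard error 0.0578, adjusted p = 0.000685), and the difference from EpiLCs in pEpiLCs was not called (-0.09, adjusted p = 0.185). Pcna-ps2, a processed copy of Pcna, is also listed in the count table and may share reads with it.

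Rrm1 and Rrm2 encode the large and small subunits of ribonucleotide reductase, which makes deoxyribonucleotides. Rrm1 had 259, 237 and 251 CPM in EpiLCs, 283, 271 and 269 CPM in aEpiLCs and 334, 308 and 307 CPM in pEpiLCs. Its states did not overlap and pEpiLCs were highest, with a log2 fold change of 0.37 from EpiLCs (standard error 0.0608, adjusted p = 0.00281). The log2 fold change in aEpiLCs was 0.14 (adjusted p = 0.0570, and 0.0409 without aEpiLC replicate 3). Rrm2 had 280, 272 and 270 CPM in EpiLCs, 252, 220 and 215 CPM in aEpiLCs and 314, 248 and 234 CPM in pEpiLCs. It fell by 0.26 in aEpiLCs (standard error 0.0653, adjusted p = 0.00581, and 0.0753 when all 9 libraries were fitted together). In pEpiLCs replicate 1 was the highest of all 9 libraries and the other libraries lay below EpiLCs (-0.02, adjusted p = 0.870), and without replicate 1 Rrm2 was called lower (-0.16, adjusted p = 0.0170). Tyms encodes thymidylate synthase and had 121, 120 and 116 CPM in EpiLCs, 93.7, 98.7 and 103 CPM in aEpiLCs and 89.5, 103 and 108 CPM in pEpiLCs. All EpiLC libraries lay above the others. It fell by 0.27 in aEpiLCs (standard error 0.0603, adjusted p = 0.00223) and by 0.23 in pEpiLCs (standard error 0.0759, adjusted p = 0.0420), the latter call being lost without any 1 of the EpiLC libraries or pEpiLC replicate 2 (adjusted p from 0.0735 to 0.123), under total count scaling (0.0555), without the filter (0.0658), with the replicate number as a block (0.0689) and in edgeR's likelihood ratio test (0.0597).

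**Figure D4:**
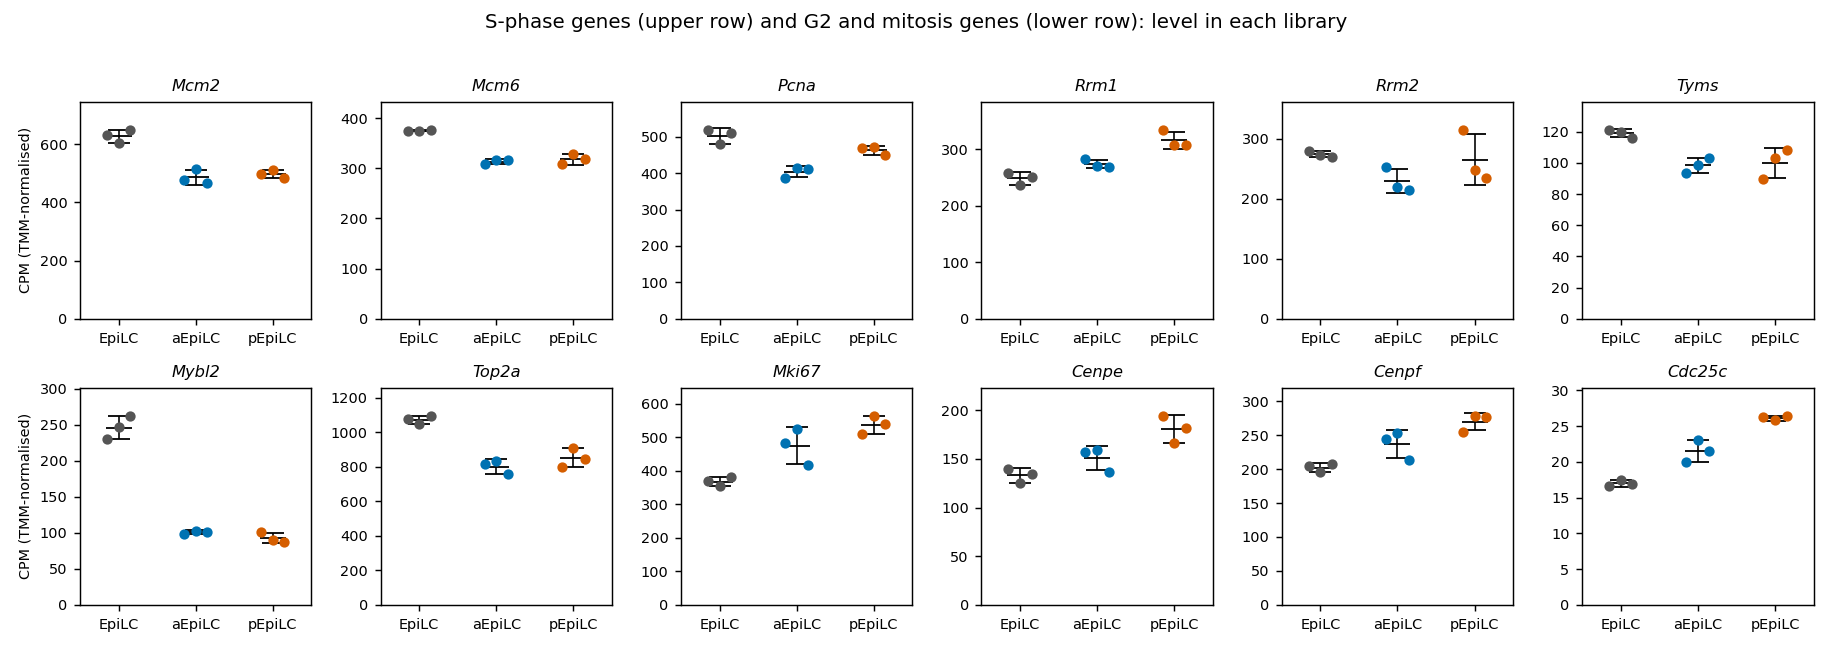
Level of 6 S-phase genes (upper row) and 6 G2 and mitosis genes (lower row) in each library (y axis, TMM-normalised CPM from 0) for EpiLCs, aEpiLCs and pEpiLCs (x axis). Points are libraries in the order of their replicate numbers, and black marks give the mean and the SD of the 3 libraries. Mybl2 drops from 230 to 262 CPM in EpiLCs to 87.3 to 103 CPM in all other libraries, and Mki67 and Cdc25c are lowest in EpiLCs.

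Among the S-phase promoters, 4 of 9 genes held an E2F form (44.4%, against 2.1% of all genes and 3.5% of those in the count table), 8 held CCAAT (88.9%, against 41.1% and 42.8%) and 1 held TTTGAA (11.1%, against 20.2% and 15.3%). The promoter of Mcm6, a gene that fell in both derivatives, is shown for its several E2F forms. The longer run of capitals is TTTGGCGC overlapping a reverse complement of TTTCGCGC, and the pieces of ATTGG are reverse complements of CCAAT.
Mcm6 promoter, chr1:128359706-128359855, minus strand: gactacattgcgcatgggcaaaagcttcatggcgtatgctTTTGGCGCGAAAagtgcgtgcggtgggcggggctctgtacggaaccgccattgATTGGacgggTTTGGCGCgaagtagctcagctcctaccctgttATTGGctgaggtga

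The G2 and mitosis genes held the largest fall, that of Mybl2, beside a majority that were not called. Of the 20 genes, 5 (25.0%) were higher in aEpiLCs (Ccnb2, Cdc25c, Mki67, Cenpe and Cenpf), 3 (15.0%) lower (Ccnb1, Mybl2 and Top2a) and 12 not called, beside 24.0% higher and 22.6% lower of all genes. The higher count was 3 without any 1 of the EpiLC libraries or aEpiLC replicate 2, beside 19.4% to 20.9% of all genes. It was also 3 in a single fit of all 9 libraries, beside 18.4%. The lower count was 5 without aEpiLC replicate 3, beside 22.1%. In pEpiLCs 4 (20.0%) were higher (Cdc25c, Mki67, Cenpe and Cenpf), 4 (20.0%) lower (Ccnb1, Mybl2, Top2a and Cdc20) and 12 not called, beside 22.8% and 21.4% of all genes. The lower count was 2 without EpiLC replicate 2, beside 14.2% of all genes. The shares of higher genes in both comparisons, and of lower genes in pEpiLCs, were thus close to those of all genes. Against aEpiLCs, edgeR called 0 of the 20 genes higher and 1, Cdc20, lower in pEpiLCs in the fit of the 6 libraries, beside 6.28% and 9.30% of all genes. A single fit of all 9 libraries also called Cdc25c, Cenpe and Kif20a higher (adjusted p = 0.0389, 0.0408 and 0.0207), beside 9.27% of all genes. limma also called Kif20a higher and Ccnb2 lower (0.00869 and 0.0221), beside 9.70% and 14.1% of all genes. The mean log2 level of the 20 genes relative to EpiLCs was -0.10, -0.04 and -0.12 in the aEpiLC libraries and -0.08, -0.02 and -0.10 in the pEpiLC libraries, so the derivatives overlapped.

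Mybl2 (chromosome 2) encodes B-MYB, a transcription factor that works with FOXM1 and the MuvB complex at late cell cycle genes and is itself a known E2F target. It had 230, 247 and 262 CPM in the EpiLC libraries, 98.1, 103 and 101 CPM in the aEpiLC libraries and 101, 90.0 and 87.3 CPM in the pEpiLC libraries. Every EpiLC library was more than double every other library, and the derivatives overlapped. Its log2 fold change was -1.29 in aEpiLCs (standard error 0.0640, adjusted p = 7.52e-09) and -1.39 in pEpiLCs (standard error 0.0781, adjusted p = 4.48e-05). pEpiLCs and aEpiLCs differed by -0.12 (standard error 0.0741, adjusted p = 0.312). Its partner Foxm1 had 85.4 to 110 CPM in all libraries and was called in no comparison (log2 fold changes of -0.10, 0.04 and 0.11). Exons of Foxm1 overlap those of Gm44596 and Tex52 on the same strand.

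Top2a, the topoisomerase that untangles chromosomes before they part, also fell. It had 1080, 1046 and 1094 CPM in EpiLCs, 815, 835 and 756 CPM in aEpiLCs and 801, 911 and 845 CPM in pEpiLCs. The EpiLC libraries lay above the others, which overlapped. The fall was 0.42 on the log2 scale in aEpiLCs (standard error 0.0571, adjusted p = 5.68e-05) and 0.31 in pEpiLCs (standard error 0.0590, adjusted p = 0.00501). Exons of Top2a overlap those of Gm23451 on the same strand. Ccnb1, cyclin B1, had 420 to 462 CPM in EpiLCs, 347 to 389 CPM in aEpiLCs and 329 to 387 CPM in pEpiLCs, and fell by 0.23 (adjusted p = 0.00871) and by 0.29 (adjusted p = 0.0143, and 0.0618 without EpiLC replicate 2). Ccnb2, cyclin B2, had 78.6 to 90.5 CPM in EpiLCs, 93.6 to 100 CPM in aEpiLCs and 78.7 to 96.9 CPM in pEpiLCs. It was called higher in aEpiLCs alone (0.20, adjusted p = 0.0280), a call lost without EpiLC replicate 1 or 3 or aEpiLC replicate 3 (adjusted p = 0.129, 0.0917 and 0.0633) and in a single fit of all 9 libraries (0.106). Its level in pEpiLCs was called below that in aEpiLCs without pEpiLC replicate 1 (-0.26, adjusted p = 0.0173) and by limma (0.0221). Processed copies of both, Ccnb1-ps and Ccnb2-ps, are listed in the count table and may share reads with them.

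Mki67, which encodes the proliferation marker Ki-67, rose in both derivatives. It had 369, 354 and 382 CPM in EpiLCs, 483, 526 and 416 CPM in aEpiLCs and 510, 563 and 539 CPM in pEpiLCs. The EpiLC libraries lay below the others, and the derivatives overlapped. The log2 fold change of Mki67 was 0.37 in aEpiLCs (standard error 0.0765, adjusted p = 0.00145) and 0.57 in pEpiLCs (standard error 0.0575, adjusted p = 0.000420). Cenpe and Cenpf encode kinetochore proteins. Cenpf had 205, 195 and 207 CPM in EpiLCs, 244, 253 and 214 CPM in aEpiLCs and 255, 278 and 277 CPM in pEpiLCs, and its states did not overlap. Cenpf rose by 0.23 on the log2 scale in aEpiLCs (adjusted p = 0.0124, and 0.0650 and 0.0601 without EpiLC or aEpiLC replicate 2) and by 0.44 in pEpiLCs (standard error 0.0570, adjusted p = 0.00109). Cenpe had 140, 125 and 135 CPM in EpiLCs, 157, 159 and 137 CPM in aEpiLCs and 194, 166 and 182 CPM in pEpiLCs. The EpiLC and aEpiLC libraries overlapped, and the call in aEpiLCs (0.18, adjusted p = 0.0485) was lost in 11 of 16 alternatives. These were RLE or upper quartile scaling (adjusted p = 0.0590 and 0.0501), DESeq2 (0.0596), no filter on low counts (0.0556), the replicate number as a block (0.0648), a single fit of all 9 libraries (0.107), and the fits without any 1 library other than aEpiLC replicate 3 (0.0533 to 0.201). The rise in pEpiLCs was 0.46 (standard error 0.0759, adjusted p = 0.00279). The transcripts of Mki67, Cenpe and Cenpf are among the longest of the 45, above 7500 bases, as is that of Cdk6, which fell in aEpiLCs. Those of Ccnd2, Cdkn1b, E2f3, Rb1 and Rbl1, each called higher in a derivative, lie between 4000 and 7500 bases. So do those of Mcm6 and Top2a, which fell, and of E2f2, Cdk1, Foxm1 and Kif11, which edgeR did not call. Over all genes tested with a longest transcript above 7500 bases, the median log2 fold change was 0.10 in aEpiLCs (1007 genes, 35.1% called higher) and 0.16 in pEpiLCs (997 genes, 35.0%), against -0.10 (3247 genes, 16.8%) and -0.09 (3237 genes, 15.0%) for genes of up to 2000 bases. From 4000 to 7500 bases the medians were 0.08 in aEpiLCs (3790 genes, 33.4% higher) and 0.11 in pEpiLCs (3791 genes, 31.0%). Between pEpiLCs and aEpiLCs the medians of these classes were 0.03, 0.02 and 0.00 from longest to shortest. The part of transcript length in the changes of these genes was not tested.

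Cdc25c encodes a phosphatase that activates CDK1. It had 16.6, 17.5 and 16.9 CPM in EpiLCs, 20.0, 23.1 and 21.5 CPM in aEpiLCs and 26.3, 25.8 and 26.4 CPM in pEpiLCs. The 3 states did not overlap, and pEpiLCs were highest. Its log2 fold change from EpiLCs was 0.34 in aEpiLCs (standard error 0.0956, adjusted p = 0.0101) and 0.64 in pEpiLCs (standard error 0.0832, adjusted p = 0.00106), and that between pEpiLCs and aEpiLCs was 0.28 (adjusted p = 0.0864). Exons of Cdc25c overlap those of Gm3550 on the opposite strand. Its relative Cdc25b, whose exons overlap those of Spef1 on the opposite strand, had 20.1 to 32.7 CPM and was not called, except as lower in pEpiLCs without replicate 1 (-0.33, adjusted p = 0.0269) and by limma (-0.32, adjusted p = 0.0394).

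Cdc20, the activator of the anaphase-promoting complex, was the mitotic gene called between the derivatives. It had 384, 373 and 368 CPM in EpiLCs, 381, 381 and 392 CPM in aEpiLCs and 286, 337 and 303 CPM in pEpiLCs. All pEpiLC libraries lay below all others. It was lower by 0.32 on the log2 scale than in aEpiLCs (standard error 0.0720, adjusted p = 0.0253) and fell by 0.26 from EpiLCs (standard error 0.0672, adjusted p = 0.0177). The former call was lost without any 1 of the aEpiLC libraries or pEpiLC replicate 3 (adjusted p from 0.0774 to 0.0939), and the latter without any 1 of the EpiLC libraries or pEpiLC replicate 3 (adjusted p from 0.0526 to 0.0681). Its exons overlap those of Elovl1 on the opposite strand.

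The remaining G2 and mitosis genes passed the test in no comparison. They were Ccna2 (cyclin A2), Cdk1, the mitotic kinases Aurka, Aurkb and Plk1, the checkpoint genes Bub1 and Bub1b, and the spindle motors Kif11 and Kif20a. Their log2 fold changes from EpiLCs lay between -0.15 for Plk1 and -0.03 for Bub1b in aEpiLCs and between -0.16 for Aurka and Plk1 and 0.14 for Kif20a in pEpiLCs. Cdk1 had 148 to 154 CPM in aEpiLCs and 146 to 166 CPM in pEpiLCs, beside 158 to 163 CPM in EpiLCs. Some were called under other settings. Kif20a was called higher in pEpiLCs without pEpiLC replicate 1, against EpiLCs (0.19, adjusted p = 0.00547) and against aEpiLCs (0.27, adjusted p = 0.0101). Ccna2 was called lower in aEpiLCs under RLE or upper quartile scaling, by DESeq2 and by limma (adjusted p from 0.0354 to 0.0493), and Plk1 in pEpiLCs under upper quartile scaling, by limma and under the stricter filter on low counts (0.0270 to 0.0465). Kif20a was called higher in pEpiLCs than in EpiLCs also by limma and under total count scaling (0.00770 and 0.0440). DESeq2 and limma also called Kif20a higher in pEpiLCs than in aEpiLCs (0.0365 and 0.00869). In aEpiLCs, Ccna2 and Aurka were called lower without aEpiLC replicate 3 (adjusted p = 0.0480 and 0.0483) and Plk1 without aEpiLC replicate 2 (adjusted p = 0.0305), and Plk1 was called lower in pEpiLCs without pEpiLC replicate 2 (adjusted p = 0.0321). Exons of Ccna2, Plk1 and Kif20a overlap those of Exosc9, Gm44985 and Cdc23 on the opposite strand.

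Of the promoters of G2 and mitosis genes, 10 of 15 held TTTGAA (66.7%, against 20.2% of all genes and 15.3% of those in the count table), 14 held CCAAT (93.3%, against 41.1% and 42.8%) and 1, Cdk1, held an E2F form (6.7%, against 2.1% and 3.5%). The sequences below are those of Mki67 and Top2a, which share both TTTGAA and CCAAT and moved in opposite directions, and of Mybl2, in whose window none of the searched letters was found. The latter says only that these letters are not there.
Mki67 promoter, chr7:135716380-135716529, minus strand: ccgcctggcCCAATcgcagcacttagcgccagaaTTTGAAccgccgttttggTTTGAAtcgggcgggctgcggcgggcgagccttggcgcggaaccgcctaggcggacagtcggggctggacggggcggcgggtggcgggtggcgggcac
Top2a promoter, chr11:99024190-99024339, minus strand: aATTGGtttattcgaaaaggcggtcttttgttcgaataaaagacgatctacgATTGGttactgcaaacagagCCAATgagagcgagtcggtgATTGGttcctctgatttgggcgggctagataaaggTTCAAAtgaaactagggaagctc
Mybl2 promoter, chr2:163054485-163054634, plus strand: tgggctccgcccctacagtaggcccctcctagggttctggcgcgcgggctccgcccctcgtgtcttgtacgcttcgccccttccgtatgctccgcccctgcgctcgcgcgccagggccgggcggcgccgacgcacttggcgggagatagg

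Further cell cycle genes came from lists of general knowledge, chosen with earlier results of these data known. Of 44 further replication and S-phase genes, 1 (2.27%) was higher and 19 (43.2%) lower in aEpiLCs, beside 24.0% and 22.6% of all genes. The higher count was 5 under total count scaling, beside 28.1% of all genes. It was 2 without EpiLC replicate 1 or aEpiLC replicate 3, beside 20.8% and 22.9%. It was 0 without EpiLC replicate 2 or 3 or aEpiLC replicate 1, beside 19.8%, 19.4% and 21.8%. In pEpiLCs 4 (9.09%) were higher and 13 (29.5%) lower, beside 22.8% and 21.4% of all genes. Without pEpiLC replicate 1, 9 were higher and 14 lower, beside 26.6% and 26.0%. Higher were 2 without EpiLC replicate 2 and 7 by limma, beside 15.3% and 27.2%. Between pEpiLCs and aEpiLCs 1 was higher and 0 lower by edgeR in the fit of the 6 libraries, where 8 (18.2%) had an unadjusted p below 0.05, beside 6.28%, 9.30% and 31.0% of all genes. DESeq2 called 2 higher, and limma and edgeR's single fit of all 9 libraries each called 3 higher and 1 lower, beside 8.08%, 9.70% and 9.27% of all genes higher. These counts were 4 and 1 without pEpiLC replicate 1, beside 8.81% and 12.8% of all genes. They were 0 and 0 without pEpiLC replicate 2, beside 4.64% and 6.74%. The same held without any 1 of the aEpiLC libraries, beside at most 2.55% and 4.07%. Their median log2 fold changes were -0.13, -0.09 and 0.03. Pold2, a subunit of DNA polymerase delta, fell by 0.73 on the log2 scale in aEpiLCs (adjusted p = 4.76e-07) and by 0.74 in pEpiLCs (adjusted p = 0.000411). Cdt1, which loads the MCM ring onto DNA, fell by 0.61 (adjusted p = 1.16e-05) and by 0.60 (adjusted p = 0.00141). Lig1, the DNA ligase of replication, was higher in pEpiLCs than in aEpiLCs by 0.29 (adjusted p = 0.0226). Of 42 further G2 and mitosis genes tested, 2 (4.76%) were higher and 12 (28.6%) lower in aEpiLCs, beside 24.0% and 22.6% of all genes. In pEpiLCs 3 (7.14%) were higher and 11 (26.2%) lower, beside 22.8% and 21.4% of all genes. The higher count in aEpiLCs was 6 under total count scaling and 4 without aEpiLC replicate 1, beside 28.1% and 21.8% of all genes. It was 1 without any 1 of the EpiLC libraries, beside 19.4% to 20.8%. The higher count in pEpiLCs was 7 without pEpiLC replicate 1 and by limma, beside 26.6% and 27.2%. It was 5 under total count scaling, beside 24.3%. Between the derivatives 0 were called by edgeR in the fit of the 6 libraries, where 5 (11.9%) had an unadjusted p below 0.05, beside 6.28% higher, 9.30% lower and 31.0% below that p of all genes. edgeR called 2 lower with the replicate number as a block and 3 lower in a single fit of all 9 libraries, DESeq2 called 2 lower, and limma called 1 higher and 2 lower, beside 9.70%, 12.5%, 10.8% and 14.1% of all genes lower. Without pEpiLC replicate 1, 1 was higher and 1 lower, beside 8.81% and 12.8% of all genes. Cenpm, a centromere protein gene, fell by 0.62 (adjusted p = 0.000102) and by 0.68 (adjusted p = 0.000996), and Pkmyt1, a kinase that holds CDK1 inactive, by 0.58 (adjusted p = 0.000593) and by 0.66 (adjusted p = 0.00341).

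Of 24 further G1 regulators, 4 (16.7%) were higher and 7 (29.2%) lower in aEpiLCs, beside 24.0% and 22.6% of all genes. When all 9 libraries were fitted together, 2 were higher, beside 18.4% of all genes. In pEpiLCs 4 (16.7%) were higher and 6 (25.0%) lower, beside 22.8% and 21.4%. The higher count was 2 without EpiLC replicate 1 or 2, beside 16.2% and 15.3% of all genes, and 1 without EpiLC replicate 3, beside 14.9%. It was 6 without pEpiLC replicate 1 and by limma, beside 26.6% and 27.2%. Against aEpiLCs, 4 (16.7%) were higher and 2 (8.33%) lower in pEpiLCs, beside 6.28% and 9.30%. The higher count was 1 without any 1 of the aEpiLC libraries, beside 1.79% to 2.55% of all genes. It was 2 without pEpiLC replicate 3, beside 4.26%. The lower count was 1 without aEpiLC replicate 2 or 3 or pEpiLC replicate 3, beside 3.20%, 3.92% and 6.41%. Cdkn1a, which encodes the CDK inhibitor p21, was at a mean of 36.3 CPM in EpiLCs, 45.2 CPM in aEpiLCs and 119 CPM in pEpiLCs. It rose in pEpiLCs by 1.74 on the log2 scale from EpiLCs (standard error 0.135, adjusted p = 0.000152) and was higher than in aEpiLCs by 1.40 (standard error 0.112, adjusted p = 0.000361). Cdkn2a, which encodes p16 and p19ARF, was scarce, at means of 6.33, 3.18 and 3.63 CPM, and fell by 0.99 in aEpiLCs (adjusted p = 0.000484) and by 0.78 in pEpiLCs (adjusted p = 0.0340). Cdkn1c, which encodes the inhibitor p57, fell by 0.69 in aEpiLCs (adjusted p = 9.83e-05). Tfdp2, a dimer partner of E2F factors, was lower in pEpiLCs than in aEpiLCs by 0.69 (adjusted p = 0.00354).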

How the data were processed

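Total RNA was sequenced as paired-end reads, giving 9 libraries. According to the submitters' processing notes and the study's methods, STAR 2.7.9a aligned the reads to GRCm38 and RSEM 1.3.1 estimated the counts. The authors deposited expected counts for each gene symbol, with no scaling. The annotation, strandedness and read cleaning are not given in the sources used here. Expected counts were rounded to whole numbers. Reads that match several genes are divided among them by RSEM, and 18 of the 45 genes had a count that was not whole in some library. Each pair of states was fitted on its own 6 libraries with edgeR 4.0.16 in R 4.3.3 (TMM, filterByExpr, glmQLFit and glmQLFTest, Benjamini-Hochberg adjustment over all genes tested). Standard errors were derived from the log2 fold change and its F statistic. Library totals ranged from 20560564 to 23417917. CPM per kilobase used the longest coding transcript in GENCODE vM21, which also gave positions, on the authors' build.

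The 45 genes and the other lists were chosen with earlier results of these data known. Values by library are given for up to 6 genes of each phase with the largest called changes whose libraries did not overlap, for the D-type and E-type cyclins and Cdkn1b, and the 2 genes with the largest called changes are named in each further list and comparison. Cdc20, also given by library, and the genes given by ranges, Cdc25a among them, were described to account for all 45. The length classes were set after the transcript lengths were known. The fit was tested on simulated data with known changes. Replicate numbers were not taken as pairs, since the labels do not tie them to a shared culture or day. Alternatives were RLE, upper quartile and total count scaling, DESeq2 1.42.0, edgeR's likelihood ratio test, limma 3.58.1 voom with quality weights, no filter, at least 10 counts in every library, all 9 libraries in a single fit, the replicate number as a block, and each library left out.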

Additional observations from a re-analysis of the deposited data

How the results depend on the processing

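Of the calls among the 45 genes, 13 of 14 lower and 4 of 9 higher calls in aEpiLCs, 5 of 11 lower and 7 of 9 higher calls in pEpiLCs, and 0 of 2 lower and 2 of 3 higher calls between the derivatives held under all 16 alternatives of their comparison. No called gene changed direction under these alternatives. The medians over a phase were small and moved with the scaling. For aEpiLCs against EpiLCs, total counts alone gave medians of 0.03 (G1), -0.11 (S phase) and -0.02 (G2 and mitosis), and leaving out 1 library gave ranges of -0.06 to 0.03 for G1, above 0 without aEpiLC replicate 1, and -0.17 to -0.14 for S phase. For pEpiLCs against EpiLCs, upper quartile scaling gave -0.10, -0.12 and -0.12, total counts alone -0.03 and limma -0.12 for S phase. Leaving out 1 library gave 6 (without an EpiLC library, beside at most 15.6% of all genes) to 14 lower genes (without pEpiLC replicate 1, 26.0%). The medians were then -0.12 (without pEpiLC replicate 1) to 0.00 (without pEpiLC replicate 3) for S phase, and -0.10 to -0.04 for G2 and mitosis. For pEpiLCs against aEpiLCs, upper quartile scaling gave a median of 0.06 for S phase. DESeq2 and limma each called 6 genes higher, beside 8.08% and 9.70% of all genes, and limma called 4 lower, beside 14.1%. All 9 libraries in a single fit gave 8 higher, beside 9.27%. The G2 and mitosis median was 0.03 under limma and -0.06 to 0.03 with 1 library left out. Of the 45 genes, 0 to 3 were lower with 1 library left out, beside 3.20% to 12.8% of all genes. The cause of these differences was not tested. With the replicate number as a block, 8 genes were higher and 14 lower in aEpiLCs, beside 22.8% and 21.7% of all genes. In pEpiLCs 9 and 9 were, beside 19.6% and 19.0%, and between the derivatives 4 and 2, beside 6.51% and 9.70%. Every library correlated best with its own number between the derivatives (6 of 6, with correlations of deviations of 0.06 to 0.17), a hint from the data that leaves pairing undecided there, but not for aEpiLCs (2 of 6, -0.06 to 0.02) or pEpiLCs (5 of 6, 0.02 to 0.03) against EpiLCs. Depth did not limit detection of the 45 genes, whose lowest count was 79.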
